A study of Mus musculus with 9 samples.

Results

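RNA sequencing measured how β-actin knockout mouse embryonic fibroblasts responded to 6 h of poly(I:C), which mimics double-stranded viral RNA, and 6 of the 9 libraries of the series entered this comparison. The mock group held 3 libraries of cells given Lipofectamine 2000, a lipid carrier, in Opti-MEM medium, and the poly(I:C) group held 3 libraries of cells given 10 µg/ml poly(I:C) in the same carrier. All libraries came from Actb knockout cells of the BALB/c strain, taken from embryos of day 10.5, so the knockout was shared by both groups and its own effect cannot be read from them. In 3 more libraries the same cells had received poly(dA:dT), a DNA mimic, at the same dose and time. These shared the filter and the estimate of spread with the other libraries in 1 fit, and served as a comparison only to test where the 2 mimics differed. The comparison asks which transcripts change when cells without β-actin meet a mimic of viral RNA.

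Double-stranded RNA in the cytosol is bound by RIG-I and MDA5, which signal through the mitochondrial adaptor MAVS to the kinases TBK1 and IKKε and so to the transcription factors IRF3 and NF-kB. These factors switch on interferon beta, chemokines and inflammatory cytokines. Secreted interferon then acts through its receptor and a complex that holds STAT2 and IRF9 to raise interferon-stimulated genes, many of which block viral replication. In fibroblasts, interferon beta is the main type I interferon made early.

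Total gene counts ranged from 19826550 to 29219797 in mock and from 16082772 to 22382837 after poly(I:C). Levels are given as CPM, counts scaled to the library total after its adjustment by TMM scaling. A gene with no count could still be present at up to 3 counts, which is 0.107 to 0.18 CPM. Of 12 fibroblast markers, 11 were tested, and their summed level was 5729 to 5926 CPM in mock and 4048 to 4312 CPM after poly(I:C): 9 fell, Twist1 rose, and Lum was at or near 0. Lymphocyte markers summed to at most 0.129 CPM, with Cd3e, Cd8a and Ncr1 among those at 0. Of 11 macrophage markers, Ptprc and Tyrobp were at 0 in all 6 libraries, but others were counted. Cd14 averaged 6.3 CPM in mock and 3.69 CPM after poly(I:C), Cd68 3.14 and 1.8 CPM, and Aif1 rose from 0.0646 to 0.825 CPM. In mock, neural markers summed to 399 to 409 CPM, with Nes at 336 CPM. Epithelial markers summed to 8.99 to 10.3 CPM and skeletal muscle markers to 13.9 to 17.9 CPM in mock. In bulk samples fewer cells of a type and less RNA per cell cannot be told apart. Actb, the knocked-out gene, was at 33.1, 32.1 and 34.6 CPM in mock and at 31.5, 31.7 and 33.9 CPM after poly(I:C), with overlapping groups and an edgeR adjusted p of 0.52. The labels do not say which part of the gene is missing, so these counts do not check the deletion.

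Promoter sequences of 7 raised genes show the elements that IRF and STAT complexes and NF-kB are known to bind, and were chosen because their transcripts appear in the results and their windows hold a match. The windows of Fos and Acod1, which were also raised, hold neither match. They come from RefSeq on GRCm38.p6, run 5′ to 3′ on the gene's strand and span 250 bases before to 50 bases after the transcript start. Capitals mark every match, on either strand, to the core of the interferon-stimulated response element (GAAA, any 2 bases, GAAA) or to an NF-kB site (GGGA, any 2 bases, TTCC). Elements that differ from these letters or their spacing are not marked, so a window without a match may still hold one. Ifnb1 (chr4:88522745-88523044, minus strand) holds an NF-kB match.
Ifnb1: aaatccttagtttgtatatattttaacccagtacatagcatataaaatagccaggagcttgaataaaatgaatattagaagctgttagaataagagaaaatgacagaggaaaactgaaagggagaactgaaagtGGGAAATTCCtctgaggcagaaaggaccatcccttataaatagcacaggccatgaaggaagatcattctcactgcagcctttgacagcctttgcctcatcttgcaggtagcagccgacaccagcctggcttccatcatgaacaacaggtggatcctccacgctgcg
Il6 (chr5:30012864-30013163, plus strand) holds an NF-kB match, and Cxcl10 (chr5:92348840-92349139, minus strand) and Gbp5 (chr3:142496684-142496983, plus strand) hold 1 match of each kind.
Il6: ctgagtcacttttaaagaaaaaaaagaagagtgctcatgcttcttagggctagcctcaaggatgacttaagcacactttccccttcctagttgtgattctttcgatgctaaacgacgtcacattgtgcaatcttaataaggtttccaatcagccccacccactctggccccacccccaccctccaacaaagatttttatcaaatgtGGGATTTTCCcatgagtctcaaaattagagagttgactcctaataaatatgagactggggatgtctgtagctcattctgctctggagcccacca
Cxcl10: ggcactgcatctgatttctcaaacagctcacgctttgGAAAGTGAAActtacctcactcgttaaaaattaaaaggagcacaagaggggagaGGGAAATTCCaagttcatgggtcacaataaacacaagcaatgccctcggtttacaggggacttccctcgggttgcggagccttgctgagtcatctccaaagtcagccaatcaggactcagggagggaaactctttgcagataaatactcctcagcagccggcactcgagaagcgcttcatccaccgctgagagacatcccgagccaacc
Gbp5: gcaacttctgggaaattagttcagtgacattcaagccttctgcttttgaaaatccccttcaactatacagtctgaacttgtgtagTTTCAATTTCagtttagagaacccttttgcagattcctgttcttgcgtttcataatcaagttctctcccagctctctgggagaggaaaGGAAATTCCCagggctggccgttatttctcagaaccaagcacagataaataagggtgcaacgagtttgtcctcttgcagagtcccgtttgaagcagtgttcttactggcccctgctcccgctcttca
Ifit1 (chr19:34640639-34640938, plus strand), Isg15 (chr4:156200769-156201068, minus strand) and Stat2 (chr10:128270248-128270547, plus strand) hold interferon-response cores and no NF-kB match. The 3 matches in Isg15 overlap one another and form 1 run of capitals.
Ifit1: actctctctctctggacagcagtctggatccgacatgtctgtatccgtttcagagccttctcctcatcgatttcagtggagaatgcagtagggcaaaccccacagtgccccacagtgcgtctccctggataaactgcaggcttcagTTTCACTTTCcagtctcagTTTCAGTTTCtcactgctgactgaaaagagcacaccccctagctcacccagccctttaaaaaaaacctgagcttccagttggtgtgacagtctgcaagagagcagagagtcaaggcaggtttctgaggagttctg
Isg15: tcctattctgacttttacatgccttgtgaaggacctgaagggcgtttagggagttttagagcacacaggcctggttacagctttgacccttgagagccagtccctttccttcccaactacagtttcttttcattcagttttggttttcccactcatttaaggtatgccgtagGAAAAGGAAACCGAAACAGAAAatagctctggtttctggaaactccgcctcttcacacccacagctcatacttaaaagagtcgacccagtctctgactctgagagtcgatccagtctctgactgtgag
Stat2: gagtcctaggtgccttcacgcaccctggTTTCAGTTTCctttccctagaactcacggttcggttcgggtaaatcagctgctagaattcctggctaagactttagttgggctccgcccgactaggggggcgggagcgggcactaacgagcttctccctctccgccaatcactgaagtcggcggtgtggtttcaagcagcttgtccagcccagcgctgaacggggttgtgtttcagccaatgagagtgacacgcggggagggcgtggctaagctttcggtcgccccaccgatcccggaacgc

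Among 36 antiviral effectors tested, 31 had a matched promoter, and 21 of these (67.7%) held the interferon-response core, against 317 of the 10418 matched promoters of all tested genes (3.04%) and 3.44% of all windows in the RefSeq table. The NF-kB match lay in 1.47% of matched promoters of tested genes. Ifitm2, which fell, was among the 21 effectors with the core. The core lay in 4 of 17 matched promoters of RNA sensors and adaptors (Ddx58, Ifih1, Ddx60 and Eif2ak2) and in 5 of 20 of MHC class I genes. In 29 matched promoters of AP-1, EGR, NR4A and KLF factors it was found in 2. The core lay in 4 of 8 promoters of the OAS pathway, 2 of 20 of interferon signalling and 0 of 22 of NF-kB genes. Among groups that mostly fell, it lay in 6 of 40 promoters of cytosolic ribosomal proteins and 3 of 27 of matrix glycoproteins. It lay in 2 of 43 for nuclear oxidative phosphorylation and 0 of 33 for NRF2 and redox genes. Among matched promoters the core was therefore not confined to raised groups. Under 80% of tested genes had a matched promoter for the OAS pathway (8 of 11), NF-kB (22 of 29) and ribosomal proteins (40 of 52). The same held for matrix glycoproteins (27 of 41) and nuclear oxidative phosphorylation (43 of 54). The shares of these lists therefore describe the matched promoters alone. For genes raised at least 16-fold only 147 of 255 had a matched promoter, under 80%, so a check of motifs over all strongly raised genes is void: among the 147, 40 (27.2%) held the core, 7 the NF-kB match and 23 the AP-1 match TGANTCA. A match is a string of letters and not evidence of binding.

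The response was broad. CPM did not overlap between the groups for 10883 of 14176 genes tested (76.8%). Of the 14176, 10787 passed an edgeR adjusted p of 0.05 (76.1%), with 5647 higher (39.8%) and 5140 lower (36.3%), and these shares are the background for each gene group below. Large changes ran almost all one way: 1858 genes rose at least 2-fold (13.1%), 750 at least 4-fold (5.29%) and 402 at least 8-fold (2.84%), while 148 fell at least 2-fold (1.04%) and 2 at least 4-fold (0.0141%). The median log2 fold change over all genes was 0.04. When libraries were scaled by total counts alone, that median moved to 0.15 and the share of calls that were higher moved from 52.4% to 62.2%, so small changes near 0 depend on the scaling.

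**Figure D1:**
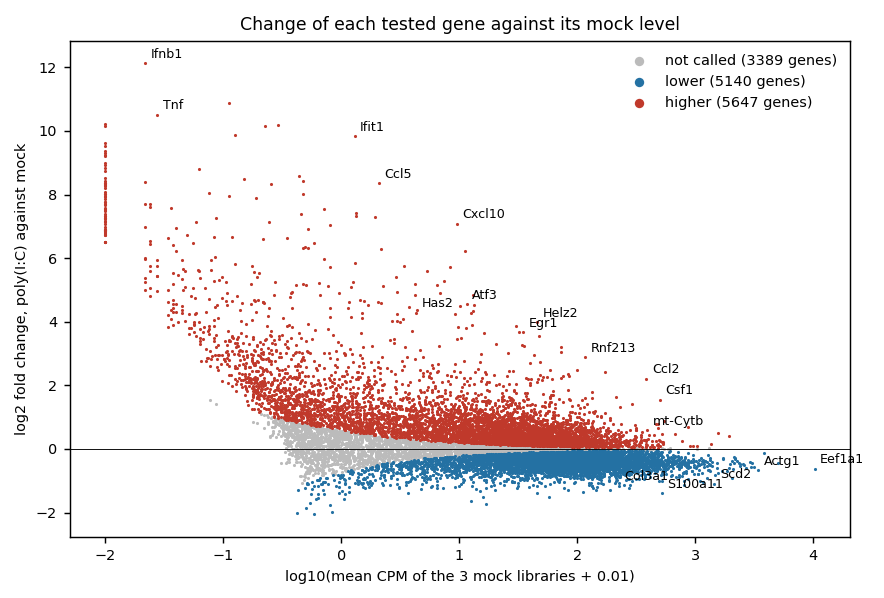
Log2 fold change of each of the 14176 tested genes (vertical axis) against the log10 of its mean mock level in CPM plus 0.01 (horizontal axis), coloured by call. The largest rises lie mostly among genes with low mock levels, which pass the filter only if treated groups are high, and genes with the highest mock levels, such as Eef1a1 and Actg1, lie below 0; folds at the left edge, where mock counts were 0, depend on the prior count.

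Most strongly raised genes had low mock levels, which the choice by fold and the filter favour, since a gene near 0 in mock is tested only if it is high in a treated group. The 255 genes raised at least 16-fold had a median mock level of 0.0665 CPM, against 28.1 CPM for all genes tested, and 326 of the 402 genes raised at least 8-fold had a mock mean under 1 CPM. After poly(I:C), 119 of the 402 reached 10 CPM. Together they took 0.0781 to 0.0793% of the counts of each mock library and 2.01 to 2.04% of each poly(I:C) library. At the other end, of 75 genes with at least 1000 CPM in mock, 69 fell and 4 rose, with a median log2 fold change of -0.48. The translation elongation factor Eef1a1 went from 10308, 10328 and 10312 CPM to 6822, 6694 and 6613 CPM.

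Ifnb1 had the largest fitted fold change of all genes tested. It encodes interferon beta, was counted once in the 3 mock libraries together (0.0358, 0 and 0 CPM) and reached 93.8, 88.3 and 82.6 CPM after poly(I:C). The groups did not overlap, and the ratio of counts was 6292 (95% counting interval 1129 to 248567). After poly(dA:dT) it averaged 4.86 ± 0.789 CPM (SD, n = 3), lower than after poly(I:C) by an edgeR test of that difference (log2 difference 4.19, adjusted p = 8.76e-103). Ifna4, an interferon alpha gene, had no mock count and reached 4.12, 4.18 and 2.82 CPM, at least 89.6-fold higher by the limit of 3 counts over the mock group. Ifnb1 and Ifna4 were the only ones of 21 listed interferons that passed the filter on low counts.

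Several interferon alpha genes too low to test were counted after poly(I:C) and not in mock. Ifna1 had 0 counts in each mock library and 6, 8 and 9 counts after poly(I:C). Ifna2 went from 0 to 5, 10 and 3 counts, Ifna5 from 0 to 5, 4 and 16, and Ifna16 from 0 to 6, 5 and 6. Ifna14 went the other way, with 2 counts in the second mock library and none after poly(I:C). Interferon alpha genes are near-identical copies, so how their reads were shared among them is uncertain. For the interferon lambda genes Ifnl2 and Ifnl3, 1 count each was found in the third poly(I:C) library and none elsewhere in the 6 libraries.

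RNA sensors rose while the adaptor that joins them did not pass the test. Of 20 sensors and adaptors tested, 17 rose, none fell and 3 (Mavs, Ticam1 and Rnf125) were not called, with a median log2 fold change of 1.62 against 0.04 over all genes. Ifih1, which encodes MDA5, the sensor of long double-stranded RNA, went from 8.59, 7.35 and 9.05 CPM to 435, 451 and 432 CPM. Ddx58, which encodes RIG-I, started higher on the CPM scale, at 46.5, 48.7 and 47.1 CPM, and reached 556, 554 and 540 CPM. Every poly(I:C) library lay far above every mock library for both genes, with log2 fold changes of 5.73 ± 0.042 (SE) for Ifih1 and 3.54 ± 0.029 (SE) for Ddx58. Dhx58, which encodes LGP2, a regulator of both, rose from 1.18, 1.33 and 1.37 CPM to 73.3, 72.0 and 75.9 CPM.

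Other sensors covered a wide range. Ddx60, a helicase linked to RIG-I signalling, had 4, 5 and 0 mock counts and reached 124, 126 and 119 CPM. Zbp1, a sensor of Z-form nucleic acid that can trigger necroptosis, had 3 mock counts in all and reached 6.74, 5.9 and 7.74 CPM, a ratio of 158 (95% counting interval 53.8 to 772). Tlr3, the endosomal receptor for double-stranded RNA, rose from between 6.27 and 6.74 CPM to between 31.7 and 35.9 CPM. Eif2ak2, which encodes the kinase PKR, stood at 109, 115 and 118 CPM in mock and at 245, 243 and 244 CPM after poly(I:C). The difference was 1.10 ± 0.028 (SE) in log2, smaller than for RIG-I or MDA5, and Eif2ak2 was at 117 ± 0.913 CPM (SD, n = 3) after poly(dA:dT). Mavs was at 57.9, 59.3 and 58.5 CPM in mock and at 57.5, 54.4 and 54.1 CPM after poly(I:C), with an edgeR adjusted p of 0.0767. Its fitted change had the opposite sign under scaling by total counts (log2 0.034) and passed the test, as lower, in 4 other settings, with adjusted p between 0.0305 and 0.0367.

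The 2′-5′ oligoadenylate synthetases, which make a second messenger when they bind double-stranded RNA, rose from very low levels. Of 11 genes of this pathway tested, 9 rose, 1 fell and 1 was not called, with a median log2 fold change of 6.66. Oasl1 had 5, 3 and 0 mock counts and reached 219, 225 and 223 CPM. Oas1b went from 0.358, 0.623 and 0.421 CPM to 165, 162 and 164 CPM, and Oas2 from 0 to 4.7, 4.01 and 4.86 CPM, at least 106-fold higher. The Oas1 copies are closely alike, so the split between them is uncertain. Abce1, which encodes a ribosome recycling factor, was the gene that fell, from 511 ± 5.64 to 457 ± 12.2 CPM (SD, n = 3).

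Antiviral effectors rose almost throughout. Of 36 tested, 34 rose and 2 fell, with a median log2 fold change of 4.48. Ifit1, which binds viral RNA that lacks the host cap, went from 1.22, 1.33 and 1.32 CPM to 1197, 1183 and 1148 CPM. Mx2, a dynamin-like GTPase, had 8, 7 and 5 mock counts and reached 327, 333 and 337 CPM, and Gbp5, a guanylate-binding protein, had 7, 7 and 2 and reached 266, 266 and 267 CPM. No mock library came near the poly(I:C) libraries for these genes. Both genes that fell encode interferon-induced transmembrane proteins: Ifitm2 went from 124, 127 and 120 CPM to 78.6, 70.1 and 78.7 CPM, and Ifitm1 had a log2 fold change of -1.57, while Ifitm3 of the same family rose by 1.36. Under the stricter filter of 50 counts in 3 libraries 1 fall was called.

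All 5 tested genes for the conjugation of ISG15, a ubiquitin-like protein, rose. Isg15 itself went from 1.72, 2.37 and 1.74 CPM to 314, 303 and 307 CPM. Usp18, which removes ISG15 and dampens interferon signalling, went from 0.967, 0.623 and 0.789 CPM to 108, 107 and 105 CPM. Of 14 poly(ADP-ribose) polymerases and partners, 13 rose, led by Parp14 (3.53 to 5.26 CPM in mock, 120 to 129 CPM after poly(I:C)), and Parp1, the main DNA-damage member, fell by 0.27 in log2. Among the genes with the largest gain in CPM, the ubiquitin ligase Rnf213 rose from 114 to 120 CPM up to 856 to 867 CPM, and the helicase Helz2 from 44.8 to 46.6 CPM up to 711 to 754 CPM.

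Genes of interferon signalling differed widely in their change. Of 24 genes of interferon reception and signalling tested, 17 rose, 3 fell (Ifnar1, Ifngr2 and Jak1) and 4 were not called, with a median log2 fold change of 0.42. Stat2 went from 33.5, 31.1 and 31.9 CPM to 406, 413 and 412 CPM. Irf7, which amplifies interferon alpha production, went from 2.29, 3.11 and 3.47 CPM to 86.2, 88.3 and 93.0 CPM. Irf7 overlaps the more abundant gene Phrf1, and the library kit does not mark strand, so reads from the shared stretch cannot be told apart. Irf3, the factor that acts first, rose by 0.41 in log2, from between 20.9 and 21.9 CPM to between 27.5 and 29.7 CPM. Ifnar1, a chain of the type I interferon receptor, was at 83.3, 81.4 and 81.7 CPM in mock and at 80.2, 77.4 and 74.8 CPM after poly(I:C). Its fall of 0.083 in log2 had an edgeR adjusted p of 0.0374, was lost in 5 settings, 3 of them without 1 library (mock 1, poly(I:C) 2 or poly(I:C) 3, adjusted p 0.0754 to 0.142), and reversed under total counts (log2 0.032). Counted with the size factors of DESeq2, or with only the 2 groups in the fit, 5 of the 24 genes fell. Among 8 SOCS feedback inhibitors, 5 rose and 2 (Socs4 and Socs5) fell, and Socs1 went from 6.3 to 7.74 CPM up to 20.4 to 23.5 CPM.

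**Figure D2:**
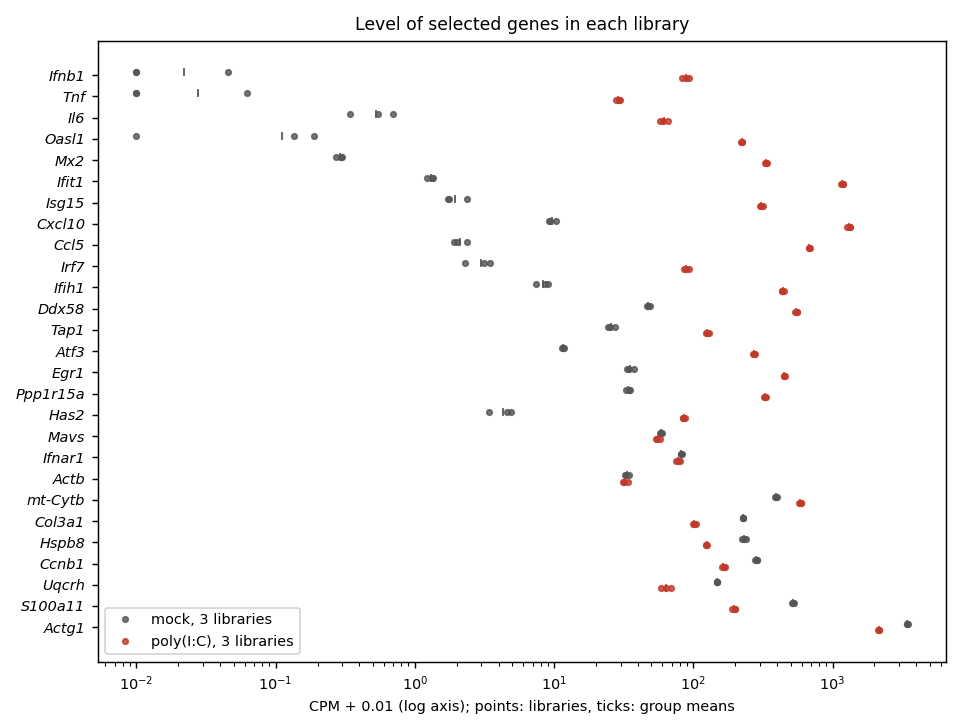
Level of 27 genes in each of the 3 mock (grey) and 3 poly(I:C) (red) libraries on a log axis of CPM plus 0.01, with short ticks at the group means. Genes at the top, such as Ifnb1, Mx2 and Ifit1, are separated by several powers of 10, whereas Actb overlaps between the groups, and the groups of Mavs and Ifnar1 lie close together.

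Chemokines rose both where mock cells already made them and where they did not. Of 19 tested, 16 rose, 1 fell and 2 were not called, with a median log2 fold change of 2.21. Cxcl10, which draws T cells and NK cells, went from 10.3, 9.22 and 9.32 CPM to 1328, 1329 and 1278 CPM. Ccl5, with a like role, went from 1.9, 2.37 and 2.0 CPM to 681, 689 and 678 CPM. Ccl2, a monocyte attractant, was already at 389, 387 and 382 CPM and rose to 1827, 1781 and 1756 CPM, and Ccl20, which attracts cells with the receptor CCR6, had no mock count and reached 4.07, 4.27 and 4.08 CPM. Every poly(I:C) library exceeded every mock library for these genes. Cxcl12, the stromal chemokine that retains blood progenitors, moved the other way, from 812, 803 and 817 CPM to 364, 363 and 370 CPM (log2 -1.15 ± 0.020 SE, edgeR adjusted p = 1.64e-103). Macrophage markers summed to 10.6 to 11.3 CPM in mock and 6.78 to 8.53 CPM after poly(I:C).

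Cytokines and growth factors for blood cells also rose. Of 16 interleukins and colony-stimulating factors tested, 11 rose, 1 (Clcf1) fell and 4 were not called, with a median log2 fold change of 1.21. That median was 2.28 with DESeq2 and 1.98 with no filter, settings that test more of the low genes. Il6, an acute-phase cytokine, went from 0.537, 0.332 and 0.684 CPM to 60.7, 65.5 and 57.7 CPM. Il15, which sustains NK cells, went from 1.54, 0.955 and 2.0 CPM to 26.2, 23.5 and 27.4 CPM, and Csf1, the macrophage growth factor, from 512, 496 and 502 CPM to 1462, 1476 and 1468 CPM. In the TNF superfamily of 26 tested ligands and receptors, 13 rose, 8 fell and 5 were not called. Tnf had 1 mock count in all and reached 29.2, 29.6 and 27.9 CPM, a ratio of 2058 (95% counting interval 369 to 81325), and after poly(dA:dT) it was at 0.724 ± 0.147 CPM (SD, n = 3). Cytokine receptors were mixed, with 11 of 25 higher and 7 lower. The highest rise among them was that of Tlr2, a receptor for bacterial lipoproteins placed in this list, from 36.8, 33.4 and 35.4 CPM to 324, 338 and 328 CPM.

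The NF-kB pathway rose together with its own inhibitors. Of 29 factors and feedback genes tested, 25 rose, 3 fell and 1 was not called, with a median log2 fold change of 1.17. Tnfaip3, which encodes the inhibitory enzyme A20, went from 27.0, 31.5 and 32.9 CPM to 442, 446 and 440 CPM. Nfkbie, an IκB inhibitor, went from 45.5, 42.6 and 39.8 CPM to 330, 329 and 341 CPM. Sqstm1, a scaffold and autophagy receptor, and Ikbkg, the regulatory subunit of the IκB kinase, fell by 0.29 and 0.27 in log2. Adhesion and checkpoint ligands rose in 12 of 14 cases: Icam1 went from 0.68, 0.54 and 0.526 CPM to 51.2, 53.8 and 52.9 CPM, Cd274, which encodes PD-L1, from 2.69, 3.07 and 3.11 CPM to 46.4, 50.3 and 46.4 CPM, and Vcam1 from between 80.2 and 88.5 CPM to between 417 and 441 CPM. Endothelial cells also make such adhesion proteins, and the 8 endothelial markers summed to 1.95 to 2.62 CPM in mock and 5.58 to 6.93 CPM after poly(I:C), with Pecam1, Cdh5 and Kdr higher, Vwf not called and Emcn at 0. Their part in the result was not tested.

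Of 25 MHC class I presentation genes tested, 18 rose, 6 fell and 1 (B2m) was not called. The 6 that fell were the chaperones Calr, Canx and Pdia3, the peptidase Erap1 and the proteasome activators Psme1 and Psme2. The small falls of Psme1 and Psme2, 0.12 each in log2, were lost with total counts (adjusted p of 0.923 and 0.951) and the filter of 50 counts (0.108 and 0.0537), and that of Psme1 also with upper-quartile factors (0.0716) and without mock library 1 (0.0646) or poly(I:C) library 2 (0.465). B2m was called higher with total counts and lower with DESeq2 or no filter. Tap1, a subunit of the peptide transporter, went from 27.4, 25 and 24.2 CPM to 124, 129 and 125 CPM. H2-Q7, a non-classical class I gene with close copies, went from 2.4, 2.12 and 1.58 CPM to 48.8, 51.0 and 54.5 CPM. Calr, the chaperone calreticulin, fell from 1327, 1318 and 1337 CPM to 833, 793 and 819 CPM, and Pdia3, its partner, fell by 0.77 in log2. The constitutive proteasome fell throughout: all 33 tested subunits were lower, against 36.3% of all genes, with a median log2 fold change of -0.44. Psmb5, a catalytic subunit that is exchanged in the immunoproteasome, went from 77.8, 76.2 and 73.5 CPM to 46.5, 48.4 and 43.4 CPM.

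Transcription factors known as early response genes were raised. Of 36 AP-1, EGR, NR4A and KLF factors tested, 32 rose and 4 fell, with a median log2 fold change of 1.33. Atf3, a stress-induced factor, went from 11.8, 11.3 and 11.6 CPM to 275, 271 and 269 CPM, and Egr1 from 34.5, 37.3 and 33.3 CPM to 445, 447 and 457 CPM. Fos, a classical immediate early gene, went from 1.83, 1.99 and 1.58 CPM to 16.7, 17.7 and 17.3 CPM. The 4 that fell were Klf3, Klf9, Klf13 and Srf, with log2 fold changes from -0.53 to -0.25. Phosphatases that switch MAP kinases off rose in 6 of 11 cases, led by Dusp8 (5.21 to 6.62 CPM in mock, 34.6 to 36.3 CPM after poly(I:C)), and 3 fell. Of 30 mRNA decay factors, 19 rose and 8 fell. Zfp36, which directs decay of cytokine mRNAs, went from between 8.74 and 9.52 CPM to between 57.7 and 62.3 CPM.

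Stress pathways were mixed. Among 38 genes of the integrated stress response, 24 rose and 11 fell, with a median log2 fold change of 0.21. Ppp1r15a, which encodes GADD34 and reverses eIF2α phosphorylation, went from 32.7, 34.9 and 34.5 CPM to 334, 326 and 322 CPM, while Atf4, the central factor of the pathway, rose by 0.31 in log2. Trib3 rose from between 25.9 and 28.6 CPM to between 70.0 and 71.8 CPM, and stood at 72.6 ± 1.65 CPM (SD, n = 3) after poly(dA:dT), with no call between the mimics (edgeR adjusted p = 0.569). By contrast Ppp1r15a was at 85.1 ± 1.75 CPM after poly(dA:dT), below poly(I:C) with an adjusted p of 2.93e-113. With scaling by total counts 5 stress response genes, not 11, fell. Chaperones mostly fell: 19 of 26 genes of the endoplasmic reticulum list fell and 5 rose. Of 25 heat shock genes, a list of cytosolic members that also holds the mitochondrial Hspd1, 20 fell and 3 rose. Hsp90b1, the endoplasmic reticulum HSP90, went from 618, 614 and 647 CPM to 354, 340 and 342 CPM, and Hspd1, the mitochondrial HSP60, from 1052, 1041 and 1053 CPM to 615, 603 and 587 CPM. Herpud1, part of the degradation pathway for endoplasmic reticulum proteins, rose from between 79.7 and 83.1 CPM to between 152 and 157 CPM.

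Genes of cell death and p53 did not move as a block. Of 33 apoptosis, necroptosis and pyroptosis genes tested, 16 rose and 14 fell, and of 32 p53 targets 15 rose and 13 fell, with medians of 0.16 and 0.05 in log2. Both medians are small and moved by over 1.5 times: the cell death median was 0.062 without poly(I:C) library 1 and 0.272 with total counts, and the p53 median was 0.026 without mock library 3 and 0.166 with total counts. Pmaip1, which encodes the pro-death protein NOXA and is in both lists, went from 23, 25.5 and 29.7 CPM to 213, 211 and 206 CPM. Casp4, the caspase that senses bacterial lipopolysaccharide and is numbered 11 in older mouse work, rose from between 8.21 and 8.76 CPM to between 41.0 and 42.0 CPM, and Bbc3, which encodes PUMA, from between 5.55 and 6.58 CPM to between 15.9 and 17.5 CPM. Trp53inp1, a p53-induced regulator, fell from 16.3 ± 1.46 to 9.37 ± 0.302 CPM (SD, n = 3) and stood at 30.5 CPM after poly(dA:dT), which was higher than after poly(I:C) with an edgeR adjusted p of 2.14e-47.

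Of 18 enzymes induced in inflammation that were tested, 11 rose, 3 fell and 4 were not called. Acod1, which makes itaconate, had no mock count and reached 6.16, 7.07 and 5.82 CPM, at least 152-fold higher. It was at 0.0892 ± 0.0428 CPM (SD, n = 3) after poly(dA:dT), lower than after poly(I:C) with an edgeR adjusted p of 1.8e-39. Hdc, which makes histamine, had 2, 3 and 0 mock counts and reached 19.8, 19.3 and 21.1 CPM, and Nos2, the inducible nitric oxide synthase, went from 4.51, 5.15 and 4.26 CPM to 42.5, 42.2 and 36.4 CPM. Hmox1, heme oxygenase 1, fell from 318, 315 and 310 CPM to 166, 163 and 161 CPM. Hmox1 is also a known target of NRF2, the factor of the oxidative stress response, and of 39 NRF2 and redox genes tested 34 fell and 5 rose, with a median log2 fold change of -0.59. The glutathione transferase Gstm1 went from 151, 140 and 143 CPM to 57.8, 57.9 and 60.4 CPM, and Slc7a11, the cystine transporter, rose from between 7.41 and 9.18 CPM to between 19 and 20 CPM. In the complement list, 5 of 11 rose, with C3 going from between 113 and 121 CPM to between 357 and 364 CPM, and 3 fell; its median of 0.10 changed sign in 2 settings and ran from 0.004 to 0.162 without 1 library, and 1 of the rises remained under the filter of 50 counts.

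In all, 59 tested genes had no count in any mock library, and each was called higher. They could pass the filter on low counts only through the treated groups, so that count is no result of its own. Of the 59, 42 are protein coding and 34 reached 1 CPM. Besides Acod1, Oas2, Ccl20 and Ifna4, they included Gpr119, a lipid receptor known from gut and pancreas, at 7.27, 6.38 and 6.54 CPM.

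**Figure D3:**
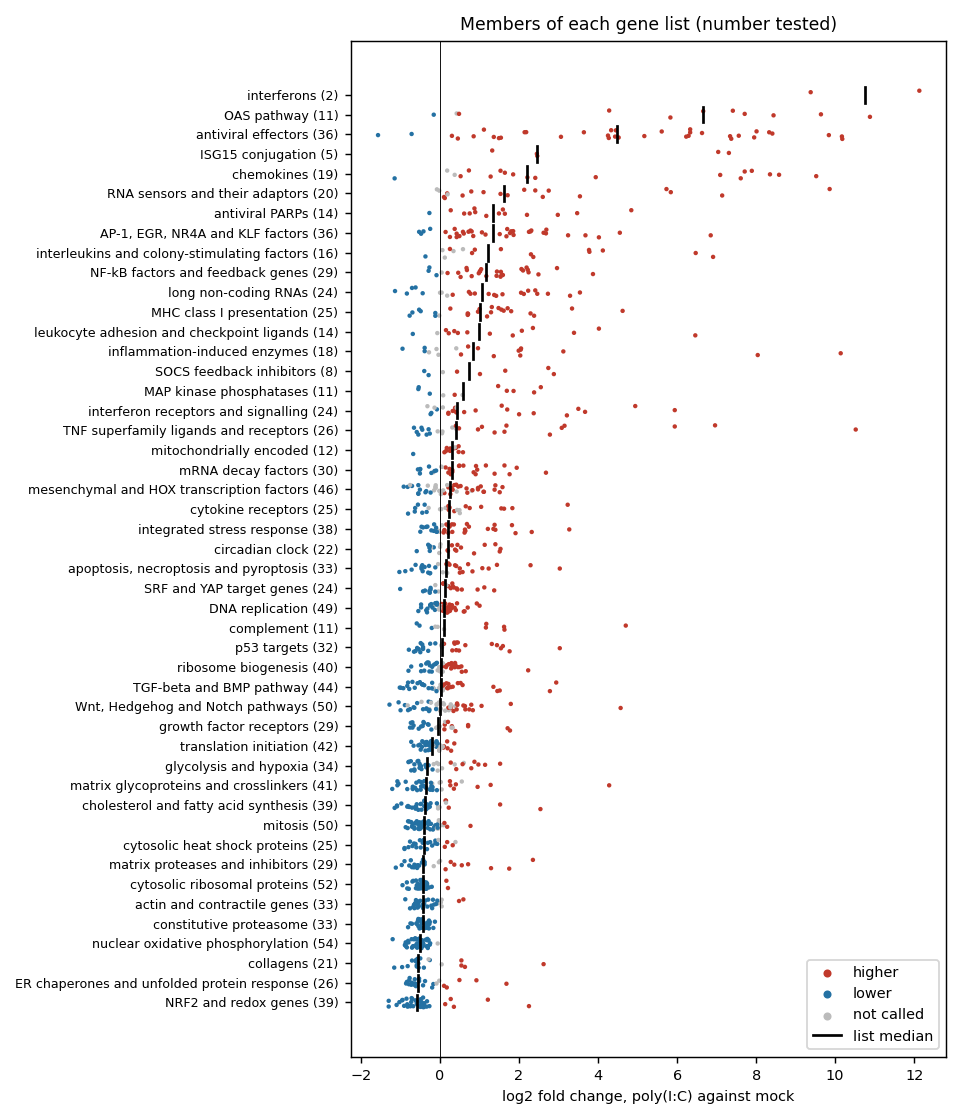
Log2 fold change of each tested member (points, coloured by call) of 47 gene lists, ordered by the list median (black bar), with the number tested in brackets. Antiviral, chemokine and transcription factor lists lie to the right, while most members of the proteasome, ribosomal, oxidative phosphorylation and NRF2 lists lie below 0, with a few NRF2 members above.

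Some strongly raised genes were neighbours. Of 746 genes raised at least 4-fold with a known position, 105 (14.1%) lay in 19 runs of at least 4 such genes with gaps of at most 100 kb. With a gap of 50 kb there were 18 runs of 87 genes, and with 200 kb 21 runs of 127. Each run is built from genes raised at least 4-fold and starts and ends at such genes. The share of its tested genes that rose is therefore largely set by that rule. Whether gene density alone would give as many runs was not tested. Several are families of antiviral genes, and close copies within them can share reads. All 6 tested genes of the Oas cluster (chr5:120730333-120907521) rose at least 4-fold, with a median log2 fold change of 7.18. In the Ifit cluster (chr19:34473778-34650009), 8 of 9 tested genes rose, 7 of them at least 4-fold. The median over those 7 alone was 7.34. The run with Cxcl9, Cxcl10 and Cxcl11 (chr5:92321347-92414628) also held Art3, which overlaps Cxcl10, and the run of Tnf, Lta and Ltb (chr17:35128997-35205351) held 9 tested genes, 6 of them higher. Of 399 genes raised at least 8-fold with a position, 38 (9.52%) overlap a more abundant raised gene, among them Art3, Dtx3l and Il27, whose neighbour lies on the opposite strand, and Igtp, which shares its strand with Irgm2. How reads from the shared stretches were assigned is uncertain.

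Histone genes made up the longest runs. One run on chromosome 13 (chr13:23535422-23764406) held 16 tested genes, of which 13 rose at least 4-fold, and another (chr13:21735064-21832196) held 8, all raised at least 4-fold. Such shares are favoured by the rule that builds runs. Of 29 protein-coding genes tested whose symbols begin with Hist, 27 rose, 25 of them at least 4-fold, and 2 were not called, with a median log2 fold change of 3.75. This group was picked after its values were seen, and is therefore given as a description. Hist1h1c, a linker histone, went from 21.0, 20.5 and 19.5 CPM to 197, 198 and 205 CPM. Hist1h1b, another linker histone, went from 0.107, 0.249 and 0.263 CPM to 19.8, 19.7 and 20 CPM. Summed over the 29 genes, the level was 40.1, 41.0 and 38.3 CPM in mock and 459, 457 and 459 CPM after poly(I:C), with poly(dA:dT) between them at 115, 111 and 107 CPM. Replication-dependent histone mRNAs are a special class because they normally end in a stem-loop and carry no poly(A) tail, and many are near-identical copies, so their reads are hard to assign. Libraries made from RNA with a poly(A) tail would miss most of them. The levels above are those of the counted reads and need not follow total histone mRNA. H3f3b, which encodes the replication-independent histone H3.3 and carries a poly(A) tail, rose from between 1559 and 1606 CPM to between 2191 and 2234 CPM.

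**Figure D4:**
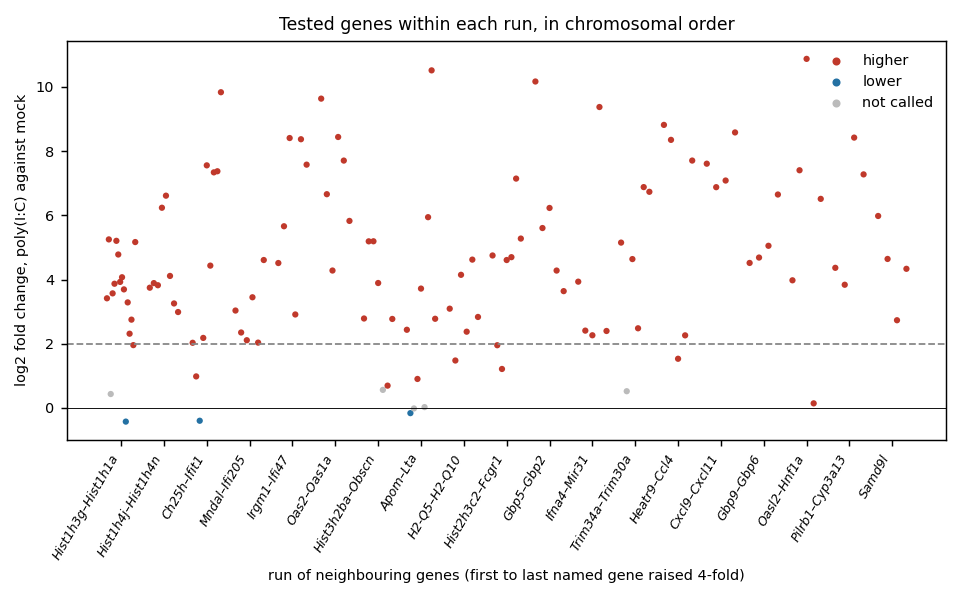
Log2 fold change (vertical axis) of all tested genes inside each of the 19 runs, in chromosomal order within a run (horizontal axis, labelled by the first and last named raised gene), coloured by call. The dashed line marks a 4-fold rise; the Oas, Ifit and Cxcl runs reach log2 values above 7, and the histone runs lie mostly between 2 and 7.

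Of 49 DNA replication genes tested, 29 rose and 14 fell, with a median log2 fold change of 0.11, and of 50 mitosis genes 41 fell and 3 rose, with a median of -0.40. Pole, the leading-strand polymerase, went from 160 CPM in each mock library to 317, 324 and 322 CPM, and Mcm10, a replication initiation factor, from 105, 107 and 113 CPM to 210, 203 and 206 CPM. Ccnb1, cyclin B1, which drives entry into mitosis, fell from 285, 279 and 285 CPM to 169, 165 and 160 CPM. Mybl2, a factor active before mitosis, was 1 of the 3 mitosis genes that rose, from between 112 and 115 CPM to between 191 and 198 CPM. The number of mitosis genes called higher was 5 with upper-quartile factors or the filter of 50 counts and 8 with total counts.

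Matrix and cytoskeleton genes mostly fell. Of 21 collagens tested 15 fell and 4 rose, of 41 matrix glycoproteins and crosslinkers 29 fell and 7 rose, and of 33 actin and contractile genes 27 fell and 2 rose, with medians of -0.55, -0.36 and -0.43 in log2. Col3a1, a fibrillar collagen, went from 227, 227 and 226 CPM to 99.0, 101 and 104 CPM. Actg1, which encodes γ-actin, the other cytoplasmic actin, went from 3413, 3471 and 3431 CPM to 2160, 2170 and 2121 CPM, and Acta2, smooth muscle actin, from 3168, 3176 and 3119 CPM to 2112, 2110 and 2109 CPM. Zyx, a focal adhesion protein, was among the 2 actin genes that rose, by 0.48 in log2, and 4 to 5 rose under upper-quartile or total-count scaling. Has2, the hyaluronan synthase, stood out among matrix genes, rising from 4.9, 4.57 and 3.42 CPM to 87.0, 84.4 and 84.1 CPM, and stood at 6.87 ± 0.81 CPM (SD, n = 3) after poly(dA:dT). Among proteases and inhibitors, 18 of 29 fell and 8 rose, and the membrane collagenase Mmp14 went from between 119 and 130 CPM to between 55.1 and 59.3 CPM.

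In developmental signalling, rises and falls were mixed. Of 44 TGF-beta and BMP genes 16 rose and 19 fell, of 50 Wnt, Hedgehog and Notch genes 15 rose and 17 fell, and of 29 growth factor receptors 9 rose and 13 fell. Their medians, 0.02, -0.01 and -0.04 in log2, changed sign under at least 1 setting each. Dll1, a Notch ligand, had 3, 4 and 4 mock counts and reached 3.39, 3.32 and 4.92 CPM. Bambi, a decoy receptor of the TGF-beta family, went from 1.4, 1.45 and 1.42 CPM to 11.2, 10.9 and 10.7 CPM, and the Wnt receptor Fzd2 fell from 87.6, 85.6 and 77.9 CPM to 34.4, 33.4 and 36.6 CPM. Mesenchymal and HOX factors rose in 23 of 46 cases and fell in 10, with Snai2, a factor of mesenchymal identity, going from between 15.2 and 16.6 CPM to between 44.6 and 46.7 CPM. Among SRF and YAP targets 13 of 24 rose and 8 fell, and among clock genes 12 of 22 rose and 6 fell, among them Nfil3 (12.8 to 13.9 CPM in mock, 38.1 to 38.6 CPM after poly(I:C)).

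Lipid synthesis genes mostly fell. Of 39 cholesterol and fatty acid genes tested, 30 fell, 5 rose and 4 were not called, with a median log2 fold change of -0.39. Scd2, a fatty acid desaturase, fell from 1435, 1450 and 1477 CPM to 670, 681 and 701 CPM. Mylip, a ubiquitin ligase active in sterol balance, rose from 1.58, 3.49 and 2.21 CPM to 13.8, 14 and 14.2 CPM. Ch25h, which makes 25-hydroxycholesterol, an inhibitor of sterol synthesis, was in the Ifit run and went from 11, 11.6 and 10.1 CPM to 43.5, 46.7 and 43.8 CPM; it was named after its values were seen. Of the 5 called rises that of Acss2, an acetyl-CoA synthetase, was small (log2 0.22, edgeR adjusted p = 0.00876) and was lost with DESeq2 (0.0817) and without mock library 2 (0.0723) or poly(I:C) library 2 (0.0563).

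Nuclear genes of respiration fell while most tested transcripts of the mitochondrial genome rose. Of 54 nuclear genes of oxidative phosphorylation tested, 53 fell, none rose and 1 (Ndufa10) was not called, with a median log2 fold change of -0.51. Ndufa10 was called lower in 9 other settings. Uqcrh, a subunit of complex III, went from 147 CPM in each mock library to 68.7, 64.0 and 58.4 CPM. Of 12 mitochondrially encoded genes tested, 10 rose, mt-Nd3 fell and mt-Atp6 was not called, with a median of 0.31. Of the 15 listed, mt-Co2 and mt-Co3 were among those too low to test. In mock and after poly(I:C), mt-Co2 had 4, 1 and 3 and then 4, 4 and 2 counts. The counts of mt-Co3 were 4, 5 and 3 and then 2, 5 and 2. The fall of mt-Nd3 (log2 -0.68, edgeR adjusted p = 0.0198) was lost with total counts (0.0538), with DESeq2 (0.0647), without mock library 3 (0.0559) and without poly(I:C) library 1 (0.0841), and the filter of 50 counts did not test it. The gene mt-Cytb, a core subunit of the same complex, went from between 389 and 396 CPM to 590, 596 and 573 CPM, and was at 306 ± 5.65 CPM (SD, n = 3) after poly(dA:dT). Of the 12, 10 were higher after poly(I:C) than after poly(dA:dT) and none lower by the direct test, against 31.3% and 32.1% of all genes. The share of all counts on mitochondrial genes was 0.317 to 0.323% in mock, 0.42 to 0.44% after poly(I:C) and 0.259 to 0.263% after poly(dA:dT), a measure that also moves with RNA quality, and its part in the result was not tested. With mt-Co2 and mt-Co3 almost uncounted, this share covers only part of the mitochondrial mRNAs. How reads with several hits were treated is not known. Glycolysis and hypoxia genes fell in 19 of 34 cases and rose in 8, among them Pfkfb3, which drives glycolytic flux, from between 41.9 and 45.0 CPM to between 93.2 and 97.8 CPM.

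Transcripts of the translation machinery mostly fell. Of 52 cytosolic ribosomal protein genes tested, 50 fell and 2 (Rpl3 and Rpl10a) rose, with a median log2 fold change of -0.43. Rpl41 went from 1466, 1503 and 1428 CPM to 827, 810 and 828 CPM. Translation initiation factors fell in 29 of 42 cases and rose in 6, or in 13 with scaling by total counts, and Eif4a1, an RNA helicase of the cap-binding complex, went from 1062, 1080 and 1077 CPM to 680, 675 and 665 CPM. Ribosome biogenesis genes were split, with 18 of 40 higher and 16 lower. Its largest rise was that of Taf1d, a subunit of the RNA polymerase I factor SL1 and a host of small nucleolar RNAs, from 37.1, 35.9 and 37.4 CPM to 174, 177 and 167 CPM. Of 24 long non-coding RNAs tested, 16 rose and 5 fell, with a median of 1.06. The host genes Snhg15 and Snhg17 went from 14.7, 15.9 and 14.4 CPM to 99.5, 101 and 99.2 CPM and from 28.4, 25.5 and 25.9 CPM to 145, 153 and 143 CPM.

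The largest falls among genes with at least 10 CPM in mock were modest in size. S100a11, a calcium-binding protein, went from 517, 530 and 513 CPM to 200, 200 and 190 CPM, and its relative S100a4 fell by 1.38 in log2. Mgat3, a glycosyltransferase, went from 55.6, 55.6 and 61.1 CPM to 20.3, 19.8 and 19.9 CPM. Rab7b, a small GTPase of late endosomes, had the largest fall by this rule, from 16.7 ± 0.89 to 5.05 ± 0.432 CPM (SD, n = 3).

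Tested directly against poly(dA:dT), poly(I:C) gave a call for 8981 of 14176 genes (63.4%), with higher levels for 4434 genes (31.3%) and lower levels for 4547 (32.1%). Antiviral effectors were higher after poly(I:C) in 34 of 36 cases and lower in 1, with a median log2 difference of 3.25, and chemokines in 16 of 19 cases, with a median of 1.65. All 5 ISG15 conjugation genes and 26 of 29 NF-kB genes were higher after poly(I:C). Lower after poly(I:C) than after poly(dA:dT) were 52 of 54 nuclear genes of oxidative phosphorylation, 50 of 52 ribosomal protein genes and 20 of 32 p53 targets. Both mimics were given at 10 µg/ml for 6 h, and a difference in how much of each entered the cells cannot be told apart from a difference between the mimics. In the order mock, poly(dA:dT) and poly(I:C), mean levels were 1.29, 124 and 1176 CPM for Ifit1 and 9.6, 133 and 1312 CPM for Cxcl10.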

How the data were processed

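Reads per gene were deposited by the authors as raw counts, 1 file per library, each with 46603 Ensembl gene identifiers. The submitters' processing notes name the build GRCm38.p4 and the tools HTSeq, DESeq2 and TopHat2 (version 2.1.0). For the annotation release, the strand setting and reads with several hits, the choice was not given in the sources used here. RNA extraction used RNeasy and library preparation used TruSeq RNA v2, which does not mark strand, per the labels' protocols. Symbols, types and positions came from GENCODE M21 (46091 identifiers matched, 512 not).

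Tests used edgeR 4.0.16 under R 4.3.3 (quasi-likelihood, robust, two-sided, TMM scaling, filterByExpr by group). The fit held all 9 libraries and 3 group means (6 residual degrees of freedom), and p-values were adjusted by the Benjamini-Hochberg method over 14176 genes, with a threshold of 0.05. CPM used TMM-scaled library sizes. Log2 fold changes used a prior count of 0.125, and SE is the absolute log2 fold change over the square root of F. Where mock had 0 counts the fold is a bound from 3 counts over the group, and where it had 1 to 3 it is a ratio with a 95% counting interval. Such intervals and bounds reflect counting error alone, because PCR copies cannot be told from separate molecules here.

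Whether replicates came from separate cultures is not in the labels, so each p-value reflects the spread among these samples, and that spread may be technical. Replicates were compared by chi-square over genes with at least 20 counts, and the statistic per degree of freedom was 1.64 to 2.1 in the 9 pairs, so no 2 libraries agreed within sampling noise. The test was checked on simulated counts for poly(I:C) against mock over 13316 genes, and recovered 86, 82, 88 and 96% of genes changed 0.5, 0.667, 1.5 and 2-fold, with 11 false calls. Only 50 genes were changed at each fold, balanced between rises and falls, none of them near 0 in mock. Their spread was drawn from the fitted model. The check therefore cannot show the error rate or the scaling in the real data, where 76.1% of genes were called and large changes were mostly rises.

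The comparison, 47 gene lists and 7 marker lists were chosen with earlier results of these data known. An older symbol served to match 6 list members, and Hspa14, Pnp and Snhg1 were not matched. Lists are described by counts and medians, with no set test. Genes are named by a rule: Actb, 16 key genes, the 10 called, non-overlapping genes (predicted genes left out) with the largest gain, loss, log2 rise (at least 1 CPM in mock) and log2 fall (at least 10 CPM in mock), up to 4 called members of each list with the largest change (at least 2 CPM in the higher group) and 2 against its majority, and the 10 highest with 0 mock counts. Members of lists, histone genes and genes of runs named besides were chosen after their values were seen. Alternatives were DESeq2 size factors, upper-quartile and total-count scaling, DESeq2 1.42.0, no filter, a filter of 50 counts in 3 libraries, only the groups compared, a replicate block, and leaving out each library. Some genes of the lists are not reported here.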

Additional observations from a re-analysis of the deposited data

How the results depend on the processing

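Depth limits the lowest genes: 3 counts were 0.107 to 0.18 CPM, so folds of genes near 0 in mock are bounds or wide ratios. Counts of genes called kept within 1.5 times across all settings run, with 9531 to 11385 called against mock and 7943 to 9205 against poly(dA:dT). Genes raised at least 2-fold numbered 1858, and 1077 with the filter of 50 counts in 3 libraries. Genes lowered at least 2-fold numbered 148, against 81 with total counts and 74 with that filter. Genes raised at least 8-fold numbered 402, against 768 with DESeq2, 961 with no filter and 202 with that filter, which tested 19249, 25085 and 11717 genes in place of 14176. Leaving out 1 library gave 10387 to 10949 called genes, 1874 to 2038 raised and 148 to 168 lowered at least 2-fold, and 421 to 492 raised at least 8-fold. No pairing by replicate number was seen: deviations of same-numbered poly(I:C) and mock libraries correlated at 0.000343, -0.0315 and -0.0997. Those of differently numbered libraries correlated at -0.0547 to 0.078. With 3 libraries a group, these values cannot show whether same-numbered libraries shared a culture or day. A replicate block gave 10724 called genes, 5615 higher and 5109 lower, and 8905 between the mimics. Some small values changed sign. The complement median was -0.004 with DESeq2 and -0.093 with the filter of 50 counts. The growth factor receptor median was 0.077 with total counts. The TGF-beta and BMP median was -0.008 with only the groups compared and from -0.034 to 0.052 when 1 library was left out, below 0 without mock 1 (-0.011), mock 3, poly(I:C) 1 or poly(I:C) 3. The Wnt, Hedgehog and Notch median was 0.018 with upper-quartile factors, 0.1 with total counts, 0.06 with DESeq2, 0.055 with the filter of 50 counts and 0.0 to 0.018 without each of 6 libraries. With total counts, Actb was at 0.0743, Ifnar1 at 0.0316 and Mavs at 0.0337, and with the filter of 50 counts Actb was at 0.00372. Genes not called also changed sign: B2m was at 0.00851 with upper-quartile factors, 0.0898 with total counts and 0.0193 with the filter of 50 counts, and Ticam1 at 0.0167, 0.0981 and 0.0275 in the same order. With total counts Ndufa10 was at 0.054 and Vwf at 0.068. Without 1 library Ticam1 ran from -0.0601 to 0.014 and Vwf from -0.613 to 0.211. The C1s1 fall was lost with total counts. Medians that total counts moved by over 1.5 times, with no change of sign, included the integrated stress response (0.324) and DNA replication (0.22). Cholesterol and fatty acid genes called higher numbered 3 with DESeq2. The number of listed interferons called higher was 7 with DESeq2, 8 with no filter and 1 with the filter of 50 counts. The cause of these changes was not tested, beyond the number of genes each filter admits.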
